A study of Mus musculus with 6 samples.

Results

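The 10 genes described here encode the PCGF subunits of Polycomb repressive complex 1 (PRC1) and the core of Polycomb repressive complex 2 (PRC2), 10 of 19733 genes tested. They are the 6 PCGF genes Pcgf1, Pcgf2, Pcgf3, Pcgf5, Pcgf6 and Bmi1, the last also known as Pcgf4, and the 4 PRC2 core genes Ezh1, Ezh2, Eed and Suz12. Each was read from the probe set whose only annotated gene symbol is the member, and where there were several, from the one with the highest mean over the 6 arrays. Eed had such a choice, and the other members had a single probe set. All 10 were measured, and no filter on dim values was applied. The family was proposed with the Cre against EV results of these arrays known, so the differences of its members are given as a description, without p-values, and support no inference about the family.

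The cells were mouse bone marrow pre-B cells, homozygous for floxed alleles of Ppp2r1a, that had been transduced with BCR-ABL1, the fusion kinase of Philadelphia chromosome-positive leukaemia. Ppp2r1a encodes the scaffold on which protein phosphatase 2A (PP2A) is assembled. In 3 arrays the cells had also received Cre, which deletes the floxed gene, and in 3 an empty vector (EV); the labels call the EV cells wild type, although they carry the same floxed alleles and the same oncogene. None of the arrays held Cre in cells without floxed alleles, so Cre itself and loss of the gene cannot be told apart. The labels number the arrays of a group as repeats and do not say whether they came from separate mice or cultures, so the spread behind every p-value is that of these arrays and could be technical alone. The sources used here do not give the time after Cre transduction, any selection of transduced cells, or scan and extraction batches.

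Polycomb complexes keep developmental and lineage genes silent. PRC2 methylates histone H3 through Ezh2 or its paralogue Ezh1, which work only together with Eed and Suz12. PRC1 ubiquitylates histone H2A through a RING protein paired with a single PCGF protein. The PCGF protein decides which further partners join, and close PCGF paralogues share partners. In lymphoid progenitors and leukaemia, Bmi1 is best known for sustaining self-renewal and for silencing the Cdkn2a locus, and Ezh2 for its role in early B cell development.

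Within this family the PCGF genes went in both directions, and the PRC2 core genes differed little. Bmi1 was 1.37-fold higher in the Cre cells, Pcgf1 was 1.50-fold lower and Pcgf2 1.38-fold lower. Pcgf6 was 1.22-fold lower, and Pcgf3 and Pcgf5 were each 1.02-fold lower. The 4 PRC2 core genes were higher by 0.06 to 0.10 on the log2 scale. At a Benjamini-Hochberg adjusted p below 0.05 in limma over all 19733 genes, 3 of the 10 members were called, of 3.49% of all genes: Bmi1 rose, of 1.35% that rose, and Pcgf1 and Pcgf2 fell, of 2.14% that fell. For 7 of the 10 members the 2 groups did not overlap, of 22.5% of all genes, with 4 higher and 3 lower in Cre (10.3% and 12.2% of all genes). Because the contrast was known when the family was proposed, nothing is read from these shares. The median difference of the 10 members was 0.02, beside -0.0027 for all genes.

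**Figure D1:**
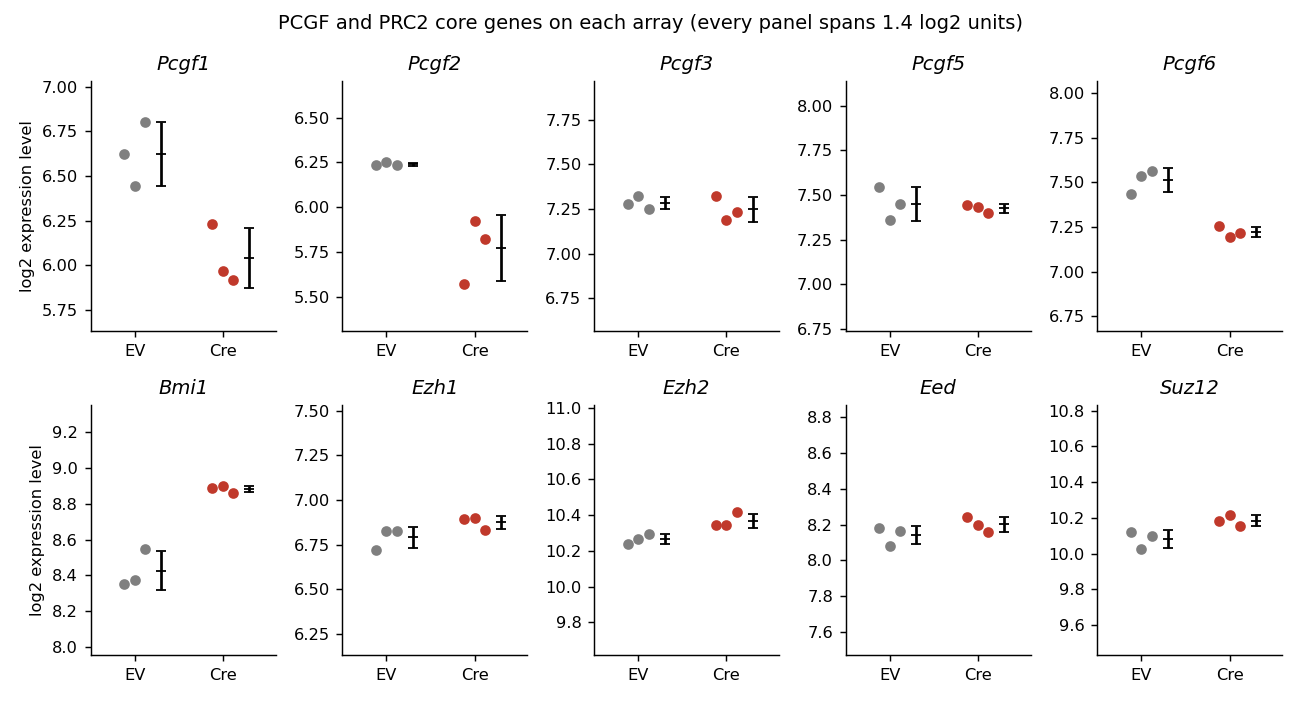
Log2 expression level of each member on the 3 EV arrays (grey) and the 3 Cre arrays (red), 1 point per array, with the group mean and SD as a black bar; every panel spans the same height, and the vertical axes do not start at 0. Bmi1 lay between 8.86 and 8.90 in Cre, above the 8.35 to 8.55 of EV, while Pcgf1, Pcgf2 and Pcgf6 lay below EV on every Cre array.

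The promoters of Bmi1, which rose, Pcgf2, which fell, and Pcgf6, which was lower without being called, are shown because these members moved and had an entry in the promoter table. They are RefSeq sequences of assembly GRCm38.p6, from 250 bases before to 50 bases after an annotated start, on the gene's own strand, with E-boxes (CACGTG, a motif read by MYC, MAX and related factors) in capitals. The Bmi1 window is chr2:18676768-18677067 on the plus strand, the Pcgf2 window chr11:97699599-97699898 on the minus strand and the Pcgf6 window chr19:47050857-47051156 on the minus strand.
Bmi1: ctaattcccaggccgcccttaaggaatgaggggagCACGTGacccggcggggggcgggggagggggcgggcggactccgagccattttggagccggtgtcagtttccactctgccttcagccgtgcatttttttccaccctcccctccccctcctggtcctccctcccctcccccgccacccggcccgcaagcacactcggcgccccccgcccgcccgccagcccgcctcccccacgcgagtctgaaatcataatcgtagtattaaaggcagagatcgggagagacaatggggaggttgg
Pcgf2: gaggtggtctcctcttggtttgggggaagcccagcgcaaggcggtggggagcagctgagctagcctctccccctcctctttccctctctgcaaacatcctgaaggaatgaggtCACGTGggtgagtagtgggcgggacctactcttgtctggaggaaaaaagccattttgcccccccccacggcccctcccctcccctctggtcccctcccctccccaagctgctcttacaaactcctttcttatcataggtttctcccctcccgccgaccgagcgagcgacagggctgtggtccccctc
Pcgf6: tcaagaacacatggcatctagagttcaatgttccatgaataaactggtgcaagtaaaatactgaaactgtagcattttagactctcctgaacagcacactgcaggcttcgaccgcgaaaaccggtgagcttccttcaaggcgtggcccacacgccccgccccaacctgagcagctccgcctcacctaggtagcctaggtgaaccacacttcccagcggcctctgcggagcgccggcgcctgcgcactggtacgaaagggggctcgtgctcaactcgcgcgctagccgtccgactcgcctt
The E-box began 215 bases before the start in Bmi1 and 137 bases before it in Pcgf2. Whether any factor binds there was not tested. Both strands were searched; the motif reads the same on both. It was present in 2 of the 11 promoter windows of the 9 members that had an entry (Pcgf5 had 3 windows), and in 7.15% of all 32851 windows of that length. Pcgf1 had no entry. The Pcgf6 window held neither this motif nor any of the 5 others searched on both strands, which are TTTGGCGC and TTTCCCGC for E2F, GTAAACA for FOXO, CCGGAAGT for ETS factors and TGACGTCA for the cAMP response element. TTTGGCGC was found in the window of Ezh2 (0.514% of all windows) and TTTCCCGC in that of Suz12 (1.07%). GTAAACA was found in 1 window each of Pcgf5 and Eed (3.65%), and the other pair of motifs in no member window (CCGGAAGT in 3.89% of all windows, TGACGTCA in 1.79%). No 2 of these matches overlapped within a member's window. The windows of Bmi1, Pcgf2 and Pcgf6 held 66.3%, 61.7% and 57.7% G or C and 23, 10 and 22 CpG dinucleotides, beside medians of 52.7% and 7 over all windows.

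Bmi1 encodes the PCGF subunit of canonical PRC1, the form that carries a CBX reader of methylated histone H3. It read 8.89, 8.90 and 8.86 with Cre and 8.35, 8.38 and 8.55 with EV. The Cre arrays lay within a narrow band, and the lowest of them stood 0.31 above the highest EV array. Bmi1 rose by 0.46 on the log2 scale (SE 0.07), from 8.43 ± 0.11 to 8.88 ± 0.02 (SD, n = 3). With 1 array left out the difference stayed between 0.42 and 0.52, but the call held in 1 of the 6 fits, that without EV replicate 3. An absolute difference of this size or larger was seen in 3.08% of all genes.

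Pcgf2, also called Mel18, is the paralogue of Bmi1 in canonical PRC1, and it changed the other way. It read 5.57, 5.92 and 5.82 in Cre and 6.24, 6.25 and 6.24 in EV. The EV arrays were almost identical, the spread was in the Cre arrays, and Cre replicate 1 was the lowest. Pcgf2 fell by 0.47 on the log2 scale (SE 0.10), from 6.24 ± 0.009 to 5.77 ± 0.18 (SD, n = 3). The difference was -0.37 without Cre replicate 1 and reached -0.54 without Cre replicate 2, the 1 fit of the 6 in which the call was kept. Within each array, the level of Bmi1 minus that of Pcgf2, set to 0 at the EV mean, was 1.14, 0.79 and 0.86 in Cre and -0.07, -0.06 and 0.13 in EV. The mean shift of 0.93 ± 0.18 (SD, n = 3) is the sum of the 2 genes' differences, and the pair was chosen for its opposite directions.

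Pcgf1 defines a variant PRC1 that contains Kdm2b and Bcor and is brought to unmethylated CpG islands. It read 6.23, 5.97 and 5.92 in Cre and 6.62, 6.45 and 6.80 in EV. Both groups were spread by about the same amount and were separated by 0.21. Pcgf1 fell by 0.58 on the log2 scale (SE 0.12), from 6.62 ± 0.18 to 6.04 ± 0.17 (SD, n = 3), the largest difference of the 10 members. Left-out fits gave between -0.68 and -0.49, and the call was kept in 2 of the 6, those without Cre replicate 1 and without EV replicate 2.

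Pcgf6 defines the variant PRC1 that joins the Mga and Max heterodimer, E2f6 and L3mbtl2 and silences germline genes. It read 7.26, 7.20 and 7.22 in Cre and 7.44, 7.54 and 7.56 in EV. The groups did not overlap, and the gap between them was 0.18. The difference was -0.29 (SE 0.07), from 7.51 ± 0.07 to 7.22 ± 0.03 (SD, n = 3), and it was not called. Among the 10 members it was the nearest to the threshold on the outer side, with Pcgf2 the nearest on the inner side. Left-out fits gave between -0.33 and -0.26.

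Pcgf3 and Pcgf5 are close paralogues that act in variant PRC1 with Auts2 and casein kinase 2, and neither was called. Pcgf3 read 7.33, 7.19 and 7.23 in Cre and 7.28, 7.32 and 7.25 in EV, and Pcgf5 7.45, 7.43 and 7.40 in Cre and 7.55, 7.36 and 7.45 in EV. The Cre and EV arrays were mixed for both genes. The difference was -0.03 for Pcgf3 (95% interval -0.19 to 0.12) and -0.03 for Pcgf5 (-0.19 to 0.14).

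**Figure D2:**
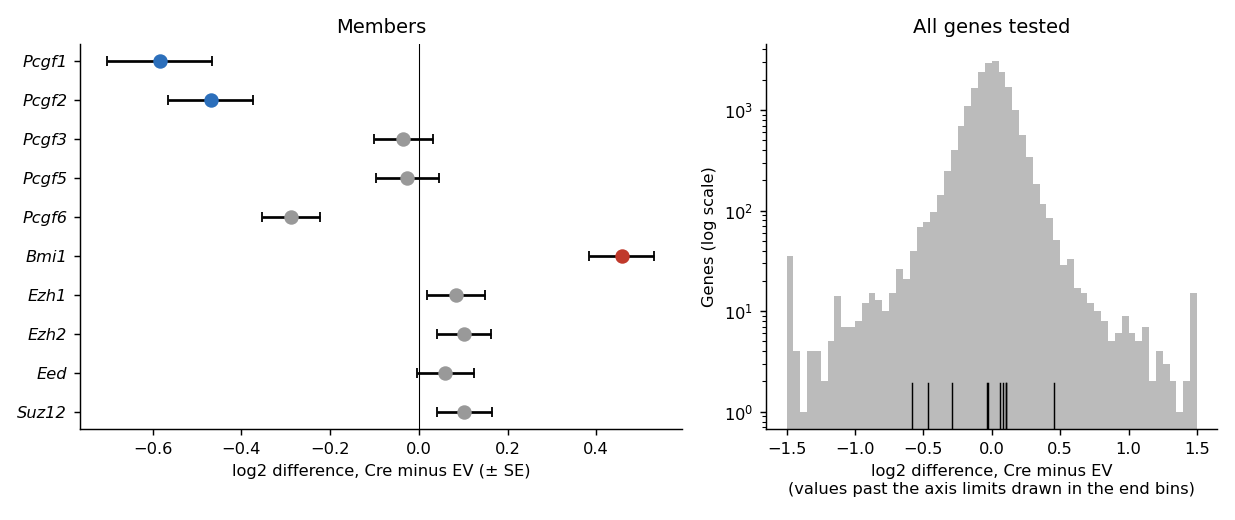
Left, the log2 difference (Cre minus EV) of each member with the standard error of limma's fit, red for a gene called higher, blue for one called lower and grey for one not called. Right, the same difference for all 19733 genes as a histogram with a logarithmic count axis, with short black lines at the 10 members; Pcgf1, Pcgf2 and Bmi1 lie on the flanks and the PRC2 core genes within 0.11 of 0.

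The PRC2 core genes were all slightly higher in Cre, and none was called. Ezh2, the main methyltransferase of dividing cells, read 10.35, 10.35 and 10.42 in Cre and 10.24, 10.27 and 10.30 in EV. Suz12, which holds the complex together, read 10.18, 10.22 and 10.15 in Cre and 10.12, 10.03 and 10.10 in EV. For both genes the lowest Cre array stood above the highest EV array, by 0.05 and 0.03. The differences were 0.10 for Ezh2 (95% interval -0.04 to 0.24) and 0.10 for Suz12 (-0.04 to 0.25).

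Ezh1, the paralogue that prevails in resting cells, read 6.89, 6.90 and 6.83 in Cre and 6.72, 6.83 and 6.83 in EV, a difference of 0.08 (95% interval -0.07 to 0.23). Its groups were set apart by 0.007 log2 units. The shift between the paralogues was small: Ezh2 minus Ezh1, set to 0 at the EV mean, was 0.02 ± 0.08 in Cre (SD, n = 3). Eed, which binds the methyl mark that PRC2 writes, read 8.24, 8.20 and 8.16 in Cre and 8.18, 8.08 and 8.16 in EV. Its groups overlapped, and the difference was 0.06 (95% interval -0.09 to 0.21). The second Eed probe set, matched to a single cDNA, was dim, at 3.93 in Cre and 3.78 in EV, and differed by 0.14 (SE 0.15).

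None of the measured subunits and partners that share complexes with the members was called. These lists, like the members, were drawn up with earlier results of these arrays known. None of 11 PRC2 accessory subunits was called in limma (1 at an unadjusted p below 0.05, beside 16.1% of all genes, against which the other such counts are also to be read), with a median difference of 0.04. Epop, which links PRC2 to elongin, differed by -0.34 (SE 0.10; limma adjusted p = 0.144), and Mtf2, a Polycomb-like protein that anchors PRC2 to CpG islands, by -0.11 (SE 0.07; limma adjusted p = 0.481).

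Of 11 measured RING, CBX, PHC and SCM subunits of PRC1, none was called (0 at an unadjusted p below 0.05 in limma), and 8 were lower, with a median of -0.075. Cbx2, a reader of methylated histone H3, differed by -0.15 (SE 0.06; limma adjusted p = 0.314) and Scmh1, an SCM protein, by -0.13 (SE 0.07; limma adjusted p = 0.453). The catalytic RING genes, named after their values were seen, differed by -0.08 for Rnf2 (SE 0.09) and 0.01 for Ring1 (SE 0.07). The 3 measured CBX genes, Cbx2, Cbx7 and Cbx8, lay between -0.15 and -0.005, and the 3 PHC genes between -0.02 and 0.06.

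None of 21 measured partners of variant PRC1 was called in limma (1 at an unadjusted p below 0.05), and the list's median was 0.01. Csnk2a2, a catalytic subunit of casein kinase 2, differed by -0.15 (SE 0.07; limma adjusted p = 0.307) and L3mbtl2 by 0.19 (SE 0.09; limma adjusted p = 0.390). The partners were also grouped by complex, after their values were seen. The 5 partners of the Pcgf1 complex lay between -0.04 and 0.04, while Pcgf1 itself differed by -0.58; the 9 partners of the Pcgf6 complex lay between -0.14 and 0.19. The 5 measured partners of Pcgf3 and Pcgf5 lay between -0.15 and 0.20.

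**Figure D3:**
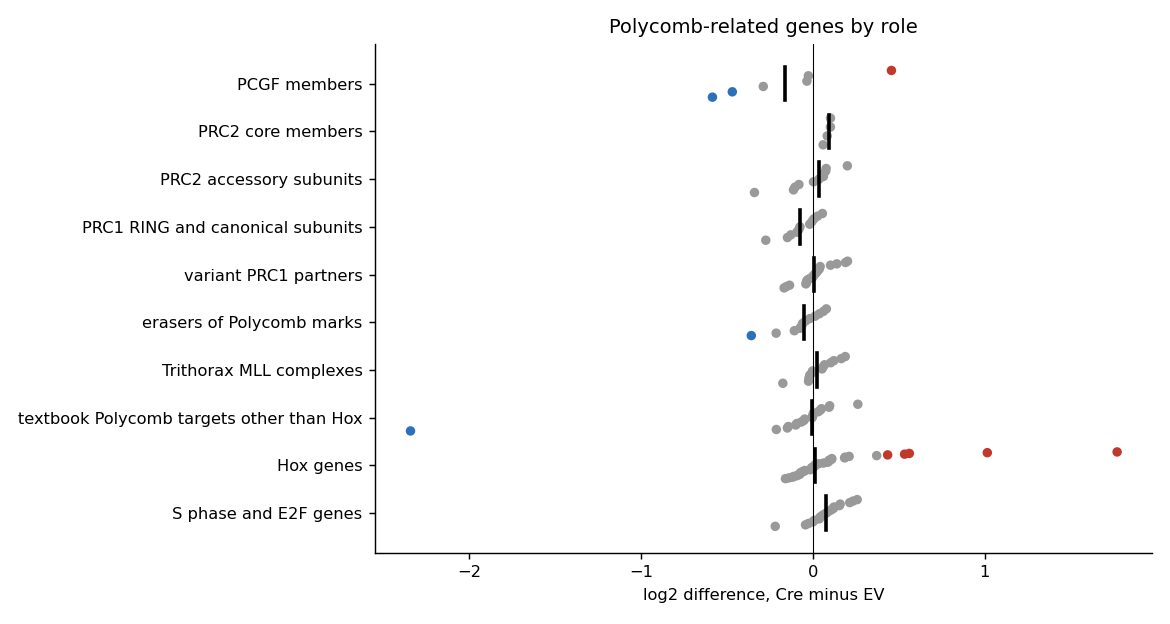
Log2 difference (Cre minus EV) of each measured gene, 1 point per gene, in rows by role, with the row's median as a black line; red points were called higher in Cre, blue points lower, and grey points were not called. Most subunits and partners lie within 0.2 of 0, while the PCGF row spans -0.58 to 0.46; in the rows of targets, En2 lies at -2.34 and Hoxa5 at 1.77.

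Genes for enzymes that remove or oppose Polycomb marks, and for their partners, were also mostly close to 0. Of 12 genes listed as erasers of these marks, partners included, 1 fell and 0 rose, with a median of -0.05. Of all genes, 2.14% fell and 1.35% rose. Usp16, a deubiquitinase of histone H2A, read 7.79, 7.74 and 7.76 in Cre and 8.12, 8.15 and 8.11 in EV. The groups were well separated, and Usp16 fell 1.28-fold (SE 0.06 on the log2 scale; limma adjusted p = 0.019). The difference stayed between -0.37 and -0.35 with 1 array left out, but its call was lost in all 6 of those fits (highest adjusted p = 0.0802). Kdm6b, a histone H3 demethylase, differed by -0.21 (SE 0.08; limma adjusted p = 0.233). None of 14 genes of the Trithorax (MLL) complexes, which write the opposing mark, was called (3 at an unadjusted p below 0.05 in limma); Kmt2d differed by -0.17 (SE 0.06; limma adjusted p = 0.223) and Hcfc1 by 0.17 (SE 0.06; limma adjusted p = 0.243).

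Of 19 measured textbook Polycomb targets other than Hox genes, 1 was called, beside 3.49% of all genes. This was En2, a homeobox gene, which fell 5.07-fold (SE 0.12 on the log2 scale; limma adjusted p = 6.635e-05), and the list had a median of -0.0037. En1 differed by -0.21 (SE 0.06; limma adjusted p = 0.139). Cdkn2a, the best known target of Bmi1, read 5.87 ± 0.10 in Cre and 5.82 ± 0.21 in EV (SD, n = 3), and Cdkn2b differed by 0.004 (SE 0.10); both were named after their values were seen. Of 37 measured Hox genes, 5 rose, beside 1.35% of all genes, and 0 fell, with a median of 0.01. Most were dim: 15 of the 19 other targets, 31 of the 37 Hox genes and 8 of the 10 measured Hoxa genes read below the mean of the array medians (Hoxa5 at 3.25 in EV, Hoxa3 at 3.78). The differences of those genes rest on dim values. Averaged over all arrays, Hoxa7 (5.15 in EV, 6.17 in Cre) and Hoxa4 (5.63 in EV, 6.06 in Cre) were not below it. The 5 Hox genes that rose were all in the Hoxa cluster, of 10 measured there: Hoxa5 by 1.77 (SE 0.15), Hoxa7 by 1.02 (SE 0.12), Hoxa3 by 0.56 (SE 0.08), Hoxa6 by 0.53 (SE 0.09) and Hoxa4 by 0.44 (SE 0.07), with limma adjusted p-values between 0.00106 and 0.0213. The calls of Hoxa4 and Hoxa6 did not hold in 4 and 5 of those 6 smaller fits, where limma's adjusted p reached 0.0634 and 0.0745. In the Hoxb, Hoxc and Hoxd clusters, with 9 measured genes each, none was called (0 in each cluster at an unadjusted p below 0.05 in limma).

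Proliferation and cell type were read on the same arrays, since Ezh2 is an E2F target and Polycomb genes vary between cell types. Of 19 S phase and E2F genes, none was called (5 at an unadjusted p below 0.05 in limma), 16 were higher in Cre, 9 of them with no overlap between groups (10.3% of all genes), and the median was 0.08, close to the 0.09 of the PRC2 core. E2f2 differed by 0.26 (SE 0.07; limma adjusted p = 0.106) and Ccne2, a G1/S cyclin, by 0.215 (SE 0.06; limma adjusted p = 0.122). The list's mean level was 8.84 to 8.93 in the Cre arrays and 8.76 to 8.82 in the EV arrays. The part of proliferation in the PRC2 values was not tested.

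**Figure D4:**
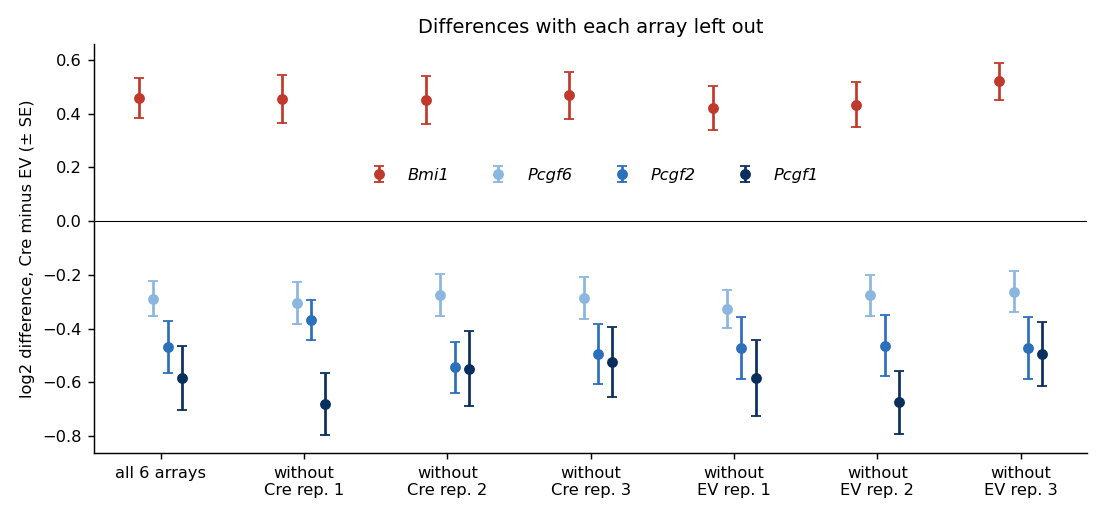
Log2 difference (Cre minus EV) with its standard error for Bmi1, Pcgf6, Pcgf2 and Pcgf1 in the fit with all 6 arrays and in the 6 fits that each leave out the array named on the horizontal axis. Bmi1 stays above 0.42 and the 3 other genes below -0.26 in every fit.

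Of the markers of the labelled cell type, pre-B, the 12 measured averaged 9.96 to 10.11 in Cre and 10.39 to 10.45 in EV. In Cre, 6 were higher and 6 lower, with a median difference of -0.06. The groups did not overlap for 5 lower and 2 higher markers (12.2% and 10.3% of all genes). Rag1, Rag2 and Dntt fell by 2.09, 1.84 and 0.48 on the log2 scale (limma adjusted p between 0.000155 and 0.03). The other 9 were not called. Those of them named after their values were seen were Ebf1 (-0.24), Cd79a (0.14), Pax5 (0.08), Vpreb1 (0.03) and Igll1 (0.002). Of 8 mature B markers, Cd74, Cxcr5 and Ms4a1 rose (by 1.64, 0.96 and 1.43; limma adjusted p between 5.817e-05 and 0.000981), the other 5 were not called, and the list's median difference was 0.14. Its mean level was 4.87 to 4.90 in EV and 5.39 to 5.50 in Cre. Of the 8, 5 read below the mean of the array medians, and Ms4a1 was dim in both groups (3.46 in EV, 4.88 in Cre). The 3 of 12 pre-B markers that fell stand beside 2.14% of all genes. The 3 of 8 mature B markers that rose stand beside 1.35%. The part of these marker genes' changes in the PCGF values was not tested. Fewer cells of a type and less RNA per cell cannot be told apart in these bulk samples. Markers of other lineages were dim: 10 of 10 myeloid, 5 of 7 T cell, 3 of 3 erythroid and 5 of 7 stromal markers read below the mean of the array medians, and none was called (0 to 2 per list at an unadjusted p below 0.05 in limma). The 2 smallest limma adjusted p-values of each list were those of Itgam and S100a9 (0.192 and 0.256), Thy1 and Cd4 (0.640 and 0.647), Klf1 and Alas2 (0.503 and 0.903), and Cxcl12 and Col1a2 (0.185 and 0.719). Mean levels in Cre and EV were at most 4.04 and 3.99 for myeloid, 4.58 to 4.76 and 4.55 to 4.76 for T cell, 4.39 to 4.72 and 4.48 to 4.78 for erythroid, and 4.38 to 4.43 and 4.41 to 4.46 for stromal markers. Ppp2r1a read 7.12, 6.98 and 6.92 in Cre and 9.06, 9.05 and 9.06 in EV, 4.15-fold lower (limma adjusted p = 1.203e-05), the direction its labels call for.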

How the data were processed

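Biotin-labelled cRNA from 6 samples was hybridised to Affymetrix arrays, per the labels. The authors deposited 1 log2 value per probe set and array, made with RMA per the submitters' processing notes. RMA sets all arrays to one distribution (array medians 5.22 to 5.27), so a change can be read only against the rest of the genes. A probe's level depends on its sequence, so levels were not compared between genes.

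Of 25006 probe sets, 21467 had 1 gene symbol in the platform annotation. The brightest per gene was kept, which left 19733 genes, named through the RefSeq table of GRCm38.p6. Cre and EV (3 arrays each) were compared with limma 3.58.1 (lmFit, then eBayes, under R 4.3.3; no block, no filter), with Benjamini-Hochberg adjustment over all genes and a threshold of 0.05. Tables and plots used Python 3.11.15, pandas 2.3.3 and matplotlib 3.10.9. SE is that of the moderated fit. On simulated data for Cre against EV with 19733 genes, the fit found 51% of genes changed by 0.5 log2 and 86% of those changed by 1 log2. The simulated noise was normal and independent, with residual SDs shuffled across genes. Fewer genes were changed than were called in the data. The shares found are therefore a rough guide and not those of a given member.

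The members and the 14 gene lists were chosen with earlier results of these data known. Of 204 list entries, 191 were matched to a tested gene, 4 lay on shared probes and 9 had no probe with that name. Named were Ppp2r1a, all members, up to 6 called genes per list with the smallest p (the 2 with the smallest p where fewer than 2 were called) and the 5 genes most like the member with the largest difference. Alternatives were a block for the repeat number, a second quantile normalization, centring on medians, a filter on the lowest 25% or 50% of genes, eBayes with trend and robust settings, array weights, the mean of a gene's probes, testing all probes, and leaving out each array.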

Additional observations from a re-analysis of the deposited data

How the results depend on the processing

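The directions of Bmi1, Pcgf1, Pcgf2 and Pcgf6 were the same in all 9 other settings and in all 6 fits with 1 array left out. The calls were less stable. Of the 10 members, 3 were called with all arrays, and 0 to 1 with 1 array left out, where fewer samples are tested. With the repeat number as a replicate block, 0 members and 0 erasers of Polycomb marks were called, and 425 of all genes in place of 689. Same-numbered arrays' deviations from their group means correlated at 0.01, -0.01 and 0.03, so little variation was shared by repeat number. With 3 arrays per group this cannot tell whether the arrays were paired by mouse or culture, which the labels do not say. With all 25006 probes tested, 1 member (Bmi1) was called. Quantile normalization again left 2 (Bmi1 and Pcgf1). Leaving out the lowest 25% or 50% of genes, or eBayes with trend and robust settings, added Pcgf6, for 4 called. Over all genes, 1295 were called without the lowest 50% and 1558 with trend and robust settings, and 362 to 424 with 1 array left out. Without the lowest 50%, 1 PRC2 accessory gene and 2 S phase genes were called. That filter removed Hoxa3, Hoxa5 and Hoxa6 from the test. The 2 Hox genes called under it were Hoxa7 and Hoxa4 (limma adjusted p = 0.000705 and 0.00224). Without the lowest 25%, 6 Hox genes were called. With trend and robust settings, 2 Trithorax and 2 S phase genes were called. With 1 array left out, 3 to 5 Hox genes and 0 erasers were called. The median difference of the members stayed between 0.0013 and 0.0352 over all fits. With 3 arrays per group, changes near 0.5 log2 can be missed. For genes that stayed in the test, the cause of each lost call was not tested.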

Other observations

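Pcgf6 and its partners are known to silence germline genes in other cells. A list of 20 such genes was written after the values of these arrays were seen, so it is described and not tested. All 20 were measured, and 18 read below the mean of the array medians. Stag3, a meiotic cohesin subunit, read 7.57 ± 0.09 with Cre and 4.10 ± 0.21 with EV (SD, n = 3). Its difference of 3.46 was the highest of all genes tested, and a link to Pcgf6 was not tested. The other 19 had a median difference of -0.001. Zcwpw1, a meiotic histone reader, was higher by 0.48 (SE 0.07) and Tex11, an X-linked meiotic gene, by 0.13 (SE 0.07), with no overlap between groups. Tdrkh, a piRNA pathway gene, was lower by -0.59 (SE 0.09), also with no overlap. The remaining 16, among them Ddx4, Dazl, Sycp3 and Mael, overlapped between Cre and EV. Of all genes, 10.3% were higher and 12.2% lower in Cre with no overlap, so the genes without overlap are not read as a result.

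Of the 40 protein-coding neighbours on the chromosome, 2 on each side of each member, 34 were measured. Of these, 1 rose and 0 fell in limma, beside 1.35% and 2.14% of all genes, and their median difference was 0.04. Commd3, the nearest neighbour of Bmi1, differed by 0.17 (SE 0.07; limma adjusted p = 0.271), beside 0.46 for Bmi1. Nt5c2, a cytosolic nucleotidase 2 genes away from Pcgf6, rose by 0.57 (SE 0.10; limma adjusted p = 0.0197), while Pcgf6 was lower.

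Over the 6 arrays, the 5 genes whose levels followed those of Pcgf1 most closely were Efhb (Pearson r = 0.994), Micos13 (0.993), Daam1 (0.992), Smad4 (0.991) and Adgrg1 (0.990). All 5 were lower in Cre, and Adgrg1 was the 1 that was called, at -0.50 (SE 0.09). These were picked as the highest correlations among all genes tested, over 6 arrays in 2 groups, and are given as a description. Efhb (2.26 in Cre, 2.73 in EV) and Daam1 (4.38 in Cre, 4.98 in EV) read below the array medians, while Micos13, Smad4 and Adgrg1 read above them.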
